A study of Sus scrofa with 36 samples.

Results

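The genes described here encode the antigen presentation machinery of MHC class II: SLA-DRA, SLA-DRB1, SLA-DQA1, SLA-DQB1, SLA-DMA, SLA-DMB and CD74, 7 genes of the 11360 that had a named probe with signal. They were read on liver microarrays through every non-control probe whose gene name, RefSeq accession or description pointed to one of them. This gave 39 probes of 60305, of which 37 passed the filter for signal (well above local background on at least 6 of 36 arrays), against 44796 passing probes on the whole array. A probe is an oligonucleotide of 60 bases on the slide that binds one labelled transcript.

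The liver came from 36 castrated male growing pigs, 1 animal per array, of the breeds Large White (LW) and Creole (CR) and of their cross (F1). Within each breed 6 animals were killed in thermoneutral conditions (TN, 24 °C) and 6 others after heat stress (HS), which makes 6 groups of 6. The sample labels give 30 °C for HS, whereas the growth protocol gives 32 °C for 5 days. No group received any other agent, and the labels give no age. All TN animals were killed before all HS animals, so temperature, day of slaughter and age cannot be told apart. By the study's methods the pigs were housed in pens of 1 breed and came from litters spread over the pens; the labels hold neither pen nor litter, so related animals counted as separate samples in every test below.

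Class II molecules are pairs of an alpha and a beta chain that carry peptides from outside the cell to the surface, where CD4 T cells read them. The chains assemble in the endoplasmic reticulum with the invariant chain CD74, which blocks the peptide groove; in the endosome CD74 is cut down and the DM molecule, itself an alpha and beta pair, helps to exchange its last fragment for a peptide. In liver the main carriers are Kupffer cells, dendritic cells, B cells and sinusoidal endothelium, while hepatocytes carry little. In pigs these genes lie in the swine leukocyte antigen (SLA) region, and the classical chains are among the most polymorphic genes of the animal.

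In the Sscrofa11.1 assembly as given by RefSeq, the 6 SLA genes lay in order along chromosome 7: SLA-DRA at chr7:24825037-24830650, SLA-DRB1 at chr7:24901386-24914016, SLA-DQA1 at chr7:24953472-24959313, SLA-DQB1 at chr7:24969034-24977238, SLA-DMB at chr7:25119278-25125089 and SLA-DMA at chr7:25133494-25137928. CD74 lay apart, at chr2:151402210-151409924. The same stretch of chromosome 7 holds the pseudogenes SLA-DRB4, SLA-DRB5 and SLA-DQB2, so the signal of the SLA-DRB1 and SLA-DQB1 probes may include RNA of near-identical copies and is uncertain for that reason. The kept probes numbered 9 for SLA-DRA, 5 for SLA-DRB1, 10 for SLA-DQA1, 5 for SLA-DQB1, 2 for SLA-DMA, 2 for SLA-DMB and 4 for CD74. The probes not kept were 1 for SLA-DRA, above background on 0 arrays, and 1 for SLA-DQB1, above background on 1 array.

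The results below turn on a few probes, whose sequences are printed here as the array files give them, 5′ to 3′. The first pair belongs to SLA-DQA1 and is shown because the probes overlap over 59 bases and yet differed in signal between animals. The capitals mark the 5 bases at which the overlapping stretches differ. Counted from 1 at the 5′ end of A_72_P743257, with its base first and that of A_72_P763148 second, the differences are T4A, C7A, C18G, A41C and A54C.
A_72_P743257 (SLA-DQA1): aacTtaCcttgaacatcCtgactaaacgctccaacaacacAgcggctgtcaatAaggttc
A_72_P763148 (SLA-DQA1): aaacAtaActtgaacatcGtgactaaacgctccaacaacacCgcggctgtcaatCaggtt

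A further SLA-DQA1 pair overlaps over 56 bases near the 3′ end of the transcript, and 30 bases of each are shown. The capitals again mark the bases that differ, T16C, C33A and C43A, counted from 1 at the 5′ end of A_72_P765361 with its base first.
A_72_P765361 (SLA-DQA1): aTtaatatgtacatggaaCcaataaatcCc
A_72_P244477 (SLA-DQA1): aCtaatatgtacatggaaAcaataaatcAc

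For SLA-DRA, SLA-DMA and SLA-DMB the sequence shown is that of the probe closest to the 5′ end of the transcript, since in these genes it differed more between CR and LW than the 3′ probe did. In these 3 lines no base is marked.
A_72_P561324 (SLA-DRA): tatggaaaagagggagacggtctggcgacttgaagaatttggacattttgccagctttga
A_72_P427349 (SLA-DMA): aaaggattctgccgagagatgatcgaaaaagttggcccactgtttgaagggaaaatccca
A_72_P629649 (SLA-DMB): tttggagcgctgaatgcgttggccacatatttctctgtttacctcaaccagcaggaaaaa

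Values are log2 signals after quantile normalization, which gives every array the same distribution of signals, so 1 unit is a doubling. A level was compared between animals at 1 probe only, never between probes, because probes differ in how strongly they bind. Differences between groups come from the linear model of limma over all passing probes with breed and temperature as terms, and a probe was called at a Benjamini-Hochberg adjusted p under 0.05. As a check of the tissue label, all 7 hepatocyte markers (ALB, APOA1, TTR, SERPINA1, APOB, TF and FGB) were well above background on all 36 arrays.

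The arrays differed in one further way that bears on the breed comparisons. On the first principal component of all probes, which held 18.6% of the variance, 5 animals stood apart from the others of their breed: LW TN 1 and LW TN 6 lay above the other LW animals, and F1 TN 3, F1 HS 1 and F1 HS 2 lay below the other F1 animals. LW TN 1 and LW TN 6 were at -4.83 and -3.04, against -44.2 to -24.8 in the other 10 LW animals, and F1 HS 1, F1 HS 2 and F1 TN 3 were at -17.0, -21.3 and -18.1, against -1.31 to 36.9 in the other 9 F1 animals. The running numbers in the sample titles set 4 of these 5 apart as well. In their order the other 10 LW animals came first, then F1 HS 1 and F1 HS 2, then LW TN 6 and LW TN 1, and then the other 10 F1 animals, F1 TN 3 among them. Whether breed labels were exchanged between these pairs was not tested, and every animal was kept in the group its label gives. Every comparison that uses LW or F1 animals, including HS minus TN, rests on these labels.

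No value of RNA integrity was at hand, and a 5′ minus 3′ measure of each array was used in its place. For 738 transcripts with probes at least 500 bases apart, the log2 signal of the most 3′ probe was taken from that of the most 5′ probe. Class II genes were left out. Each difference was centred over the 36 arrays, and the measure is the median over transcripts, relative to the average array. It ran from -0.04 to 0.16 in LW (median 0.03), from -0.09 to 0.03 in CR (median -0.03) and from -0.10 to 0.09 in F1 (median -0.01). CR lay below LW by 0.063 on the log2 scale (difference -0.063, two-sided permutation p = 0.001). The counts of called probes and genes in the breed comparisons are therefore also given without the 5 animals and with the measure as a covariate, both added after the data were seen. These are not separate checks. The measure and the first principal component had r = -0.73 over 36 animals, and -0.72 after group means were taken off. On that component LW ran from -44.2 to -3.04 and CR from 2.35 to 35.4. The covariate may thus also take off part of the breed difference.

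Heat stress left the class II genes without a called probe. Of 37 probes, 0 passed the threshold in HS minus TN (limma, smallest adjusted p = 0.448) against 0.859% of all passing probes called, and 0 had an unadjusted p under 0.05, against 13.1% of all passing probes. The differences ran from -0.18 to 0.07 on the log2 scale with a median of -0.10, and 34 of 37 were negative; over all passing probes the median was 0.00.

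SLA-DRA, the alpha chain of the DR molecule, shows how the groups lay at the probe with the highest mean signal for that gene, A_72_P640825. Its log2 signal was 12.94 at the lowest, 13.44 at the median and 13.98 at the highest in LW TN, and 12.98, 13.42 and 13.78 in LW HS. In CR it was 12.11, 13.13 and 13.51 in TN and 11.99, 12.53 and 13.28 in HS. In F1 it was 12.58, 13.08 and 13.31 in TN and 12.77, 13.23 and 13.36 in HS. TN and HS overlapped in all 3 breeds, and the lowest HS values were those of CR.

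At the invariant chain CD74 (A_72_P395573) the log2 signal ran from 10.20 to 10.93 in LW TN and from 10.29 to 10.67 in LW HS, from 9.81 to 10.64 in CR TN and from 9.69 to 10.52 in CR HS, and from 9.96 to 10.51 in F1 TN and from 9.90 to 10.45 in F1 HS. Here too TN and HS overlapped within each breed.

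Taken breed by breed, HS minus TN called 0 of 37 probes in LW, in CR and in F1, where 0%, 0% and 0.00893% of all passing probes were called. In CR 35 of 37 differences were negative, with a median of -0.33 and a lowest value of -0.55, and 6 of 37 probes had an unadjusted p under 0.05 (smallest adjusted p = 0.555), as did 7.4% of all passing probes. The lowest of these 6 p-values was that of SLA-DRB1 A_72_P626735, which encodes the DR beta chain: its difference in CR was -0.53 with an SE of 0.22 (limma, adjusted p = 0.555). In LW the median difference was -0.06 and in F1 it was 0.08, with 0 class II probes at an unadjusted p under 0.05 in either, against 5.12% and 9.31% of all passing probes. The test of the interaction, whether the temperature difference varied with breed, called 0 of 37 probes (smallest adjusted p = 0.995) and 0% of all passing probes, so a particular response of CR was not shown.

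Breed was another matter. In CR minus LW 25 of 37 probes were called and all 25 were lower in CR, against 12.9% of all passing probes called lower and 13.6% called higher. The differences ran from -1.37 to 0.23 with a median of -0.42, whereas the median over all passing probes was 0.00. The called probes were 8 of 9 for SLA-DRA, 3 of 5 for SLA-DRB1, 6 of 10 for SLA-DQA1, 1 of 5 for SLA-DQB1, 2 of 2 for SLA-DMA, 2 of 2 for SLA-DMB and 3 of 4 for CD74. Probes of 1 gene read the same transcript and some overlap in sequence, so they do not count as independent measurements. At no probe did the 12 CR animals all lie below the 12 LW animals (0 of 37, against 0.464% of all passing probes separated in either direction).

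**Figure D1:**
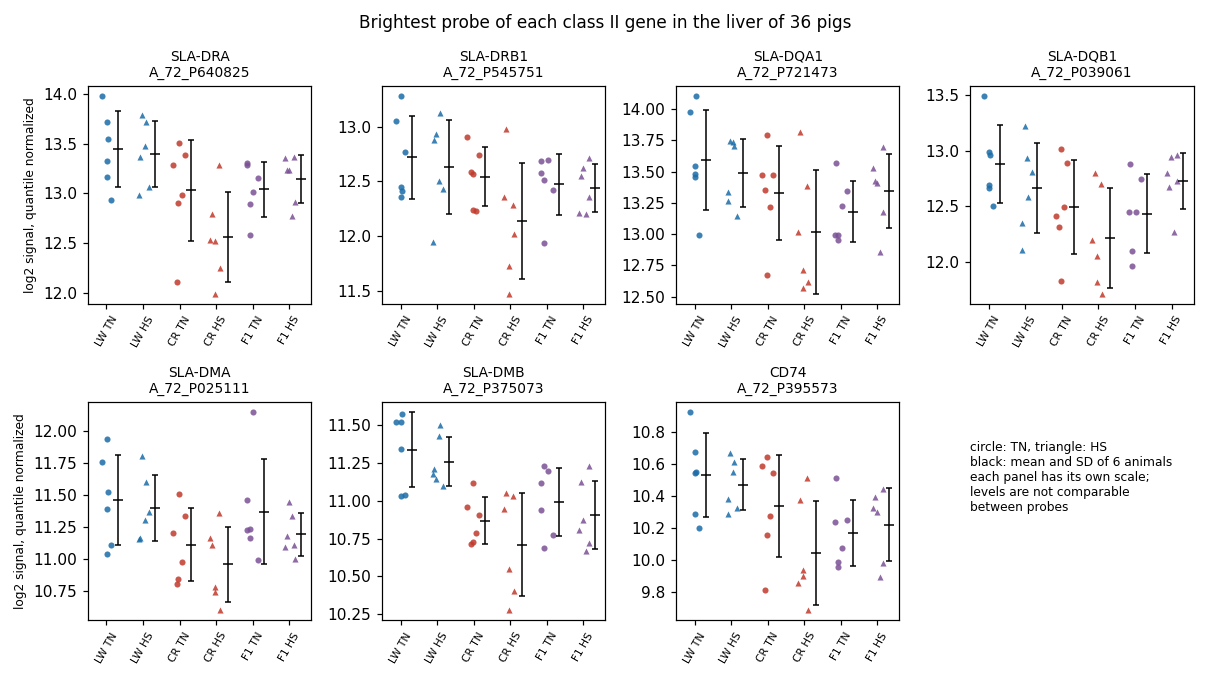
Log2 signal of the 36 animals at the probe with the highest mean signal of each of the 7 class II genes, by breed and temperature (circles TN, triangles HS), with the mean and SD of 6 animals in black. CR animals reach the lowest signal at each of the 7 probes and overlap with LW, and TN and HS overlap within every breed.

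Without the 5 animals that stood apart, 30 probes were called, 29 lower and 1 higher in CR, among them all 25, and 16% of all passing probes were then called lower. By gene the 30 were 9 of 9 for SLA-DRA, 3 of 5 for SLA-DRB1, 8 of 10 for SLA-DQA1, 2 of 5 for SLA-DQB1, 2 of 2 for SLA-DMA, 2 of 2 for SLA-DMB and 4 of 4 for CD74. The probe that was higher was the SLA-DRA probe A_72_P191146 (start 792), assigned by its description only, with a difference of 0.23 in all animals (adjusted p = 0.0795) and of 0.30 without the 5 (adjusted p = 0.0228). With the 5′ minus 3′ measure as a covariate 14 probes were called, all among the 25 and all lower, against 5.88% of all passing probes. They were 7 of SLA-DRA, 1 of SLA-DRB1, 2 of SLA-DQA1, 2 of SLA-DMA and 2 of SLA-DMB, with none of SLA-DQB1 or CD74.

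The 5 slides each held animals of both breeds, 2 to 3 LW and 1 to 3 CR. Within slides, CR minus LW was negative on 5 of 5 slides for 17 of the 25 called probes and on 4 of 5 for the other 8. The 25 were called as lower on these same animals, so the signs within slides are not separate evidence. The share of all passing probes with such signs was not worked out. Probes that were not called varied more, such as A_72_P191146, negative on 1 of 5 slides, and A_72_P672583 and A_72_P585101, negative on 2 of 5. Leaving out slide 3 brought the called class II probes to 15, all lower in CR, and the share of all passing probes called lower to 6.68%.

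**Figure D2:**
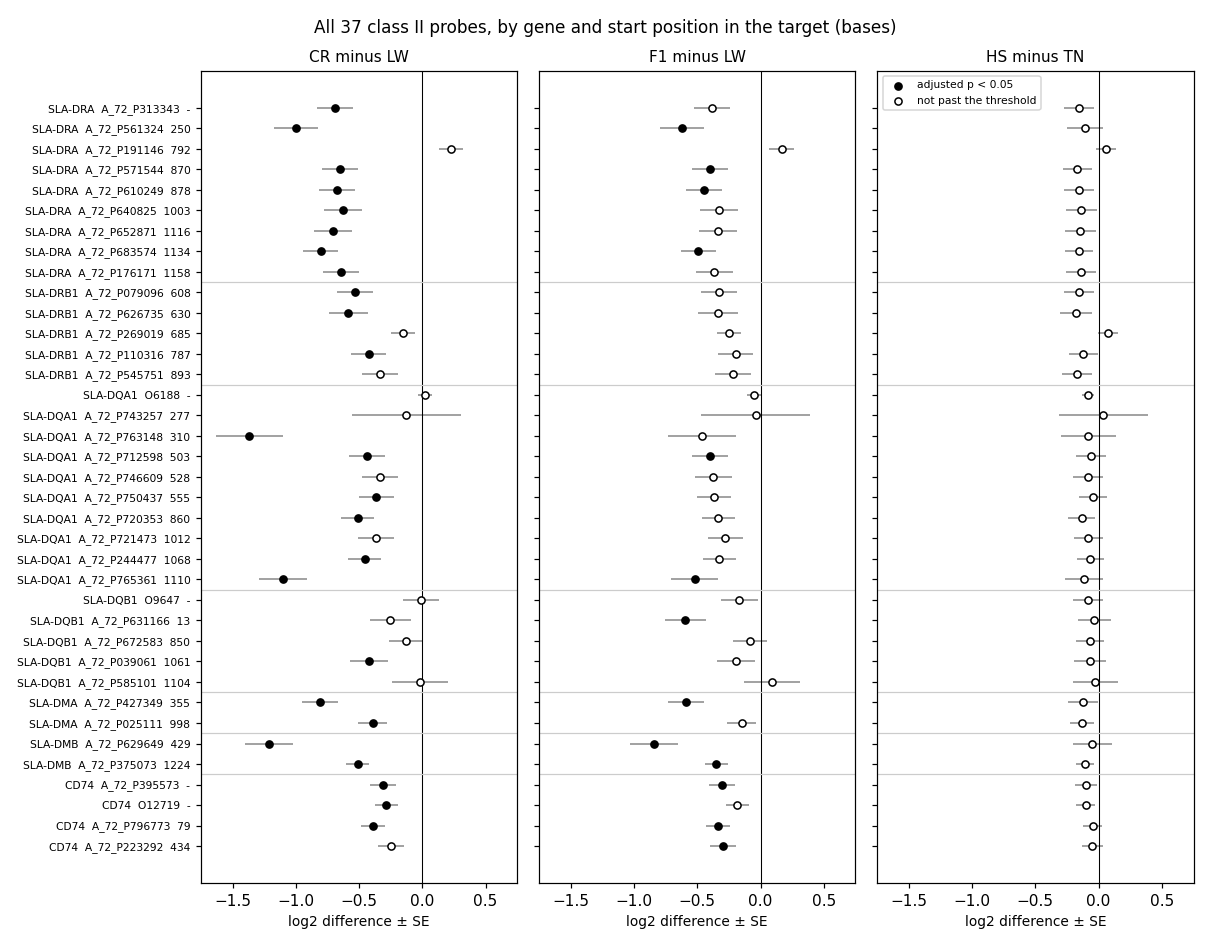
Log2 difference ± SE at each of the 37 class II probes for CR minus LW, F1 minus LW and HS minus TN, ordered by gene and by start position in the target (a dash where the files give no position); filled points passed an adjusted p of 0.05. The 25 filled points of CR minus LW and the 13 of F1 minus LW all lie left of 0, and HS minus TN has 0 filled points.

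The DM genes, whose product loads peptide onto the class II groove, gave the breed difference at every probe. SLA-DMB (DM beta chain) was read by A_72_P629649, which starts at base 429 of its target, and A_72_P375073, which starts at base 1224. At A_72_P629649 the log2 signal was 7.54 at the lowest, 8.47 at the median and 8.99 at the highest in LW, 6.66, 7.22 and 7.88 in CR and 6.88, 7.48 and 8.58 in F1. Of 12 CR animals 10 lay below the lowest LW animal. CR minus LW was -1.21 with an SE of 0.19 (limma, adjusted p = 2.01e-05), which put CR at 43.2% of the LW signal. At A_72_P375073 LW ran from 11.04 to 11.58 (median 11.28) and CR from 10.28 to 11.12 (median 10.85), again with 10 of 12 CR animals below every LW animal; the difference was -0.51 with an SE of 0.09 (adjusted p = 0.000109), or 70.2% of the LW signal.

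SLA-DMA (DM alpha chain) behaved alike. At A_72_P427349, start 355, LW ran from 7.64 to 8.87 (median 8.54), CR from 7.20 to 8.12 (median 7.62) and F1 from 7.28 to 8.68 (median 7.74), and 10 of 12 LW animals lay above the highest CR animal. The difference CR minus LW was -0.81 with an SE of 0.14 (adjusted p = 9.04e-05), against -0.39 with an SE of 0.12 (adjusted p = 0.0108) at A_72_P025111, start 998.

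In both DM genes the 5′ probe thus carried the larger difference. The within-array difference between the 5′ and the 3′ probe removes what both share, and its CR minus LW value was -0.70 for SLA-DMB and -0.42 for SLA-DMA (two-sided permutation tests, adjusted p = 0.00025 for each over the 5 genes with probes at least 500 bases apart). For SLA-DRA it was -0.36 (adjusted p = 0.00043). For SLA-DQB1 it was -0.24 and for SLA-DQA1 0.97 (adjusted p = 0.16 for each). The SLA-DQA1 value rests on A_72_P743257 and A_72_P765361, each from a pair printed above, and its SD was 2.08 in CR against 0.80 in LW. Bases that differ under these probes cannot be told apart from a difference by position.

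The 5′ minus 3′ measure of the array moved with the 5′ probe of SLA-DMB: with group means taken off, Pearson's r was 0.76 (permutation p = 1e-05, adjusted p = 4e-05) and Spearman's rho 0.69 (p = 4e-05, adjusted p = 0.00016) over 36 animals, and r was 0.73 without the 2 animals farthest from the median of the measure. At the 3′ probe r was 0.29 (p = 0.096, adjusted p = 0.13) and rho 0.31 (p = 0.069, adjusted p = 0.092). For SLA-DMA r was 0.45 at the 5′ probe (p = 0.027, adjusted p = 0.054; rho 0.50, p = 0.0067, adjusted p = 0.013) and -0.09 at the 3′ probe (p = 0.64, adjusted p = 0.64; rho 0.05, p = 0.78, adjusted p = 0.78). The 4 relations were adjusted together. With the measure as a covariate the CR minus LW difference of A_72_P629649 was -0.73 (limma, adjusted p = 0.000982), of A_72_P375073 -0.42 (adjusted p = 0.00598), of A_72_P427349 -0.60 (adjusted p = 0.00765) and of A_72_P025111 -0.43 (adjusted p = 0.0352), so all 4 DM probes were called at either end of the transcript.

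**Figure D3:**
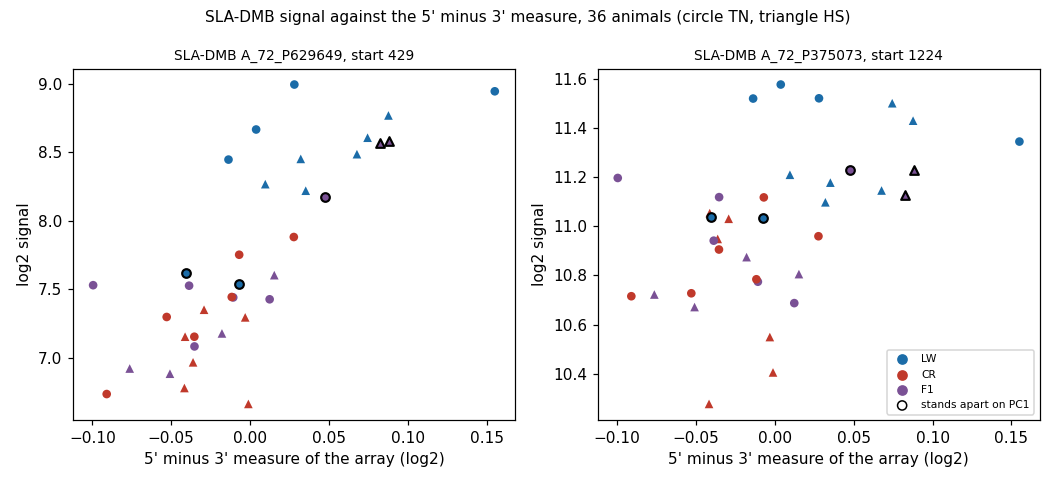
Log2 signal of the 5′ (left) and 3′ (right) SLA-DMB probe against the 5′ minus 3′ measure of the same array, by breed (colours) and temperature (circles TN, triangles HS); black rings mark the 5 animals that stood apart on the first principal component. The signal of the 5′ probe climbs with the measure, and at both probes most CR animals lie under the LW animals. The measure overlaps only in part between these breeds, from -0.04 to 0.16 in LW and from -0.09 to 0.03 in CR.

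SLA-DRA gave a called difference at 8 of 9 probes, from -1.0 to -0.63. At the 5′ probe A_72_P561324 (start 250) LW ran from 9.85 to 11.14 (median 10.60), CR from 8.55 to 10.19 (median 9.46) and F1 from 9.32 to 10.56 (median 9.70). CR minus LW was -1.0 with an SE of 0.17 (limma, adjusted p = 7.59e-05), and 9 of 12 CR animals lay below every LW animal. Near the 3′ end, A_72_P683574 (start 1134) ran from 12.61 to 13.79 in LW and from 11.62 to 12.89 in CR, with a difference of -0.80 and an SE of 0.14 (adjusted p = 6.5e-05). With the measure as a covariate these differences were -0.68 (adjusted p = 0.00738) and -0.67 (adjusted p = 0.00404). The exception among the 9 was A_72_P191146, named above, which follows a macaque DRA record in the array's annotation.

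SLA-DRB1, the polymorphic DR beta chain, was lower in CR at 3 of 5 probes. The most 5′ of them, A_72_P079096 (start 608), ran from 10.28 to 11.96 in LW and from 9.88 to 11.22 in CR, with a difference of -0.54 and an SE of 0.14 (adjusted p = 0.00511). A_72_P626735 gave -0.58 (adjusted p = 0.00539) and A_72_P110316 gave -0.42 (adjusted p = 0.0225). At the most 3′ probe, A_72_P545751, LW ran from 11.94 to 13.28 and CR from 11.47 to 12.98, and the difference of -0.33 did not pass (adjusted p = 0.0802). A_72_P269019, above background on 32 of 36 arrays, gave -0.15 (adjusted p = 0.244).

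CD74 was lower in CR at 3 of 4 probes by smaller amounts. At A_72_P796773 (start 79) LW ran from 9.16 to 9.87 (median 9.63) and CR from 8.77 to 9.53 (median 9.17), and the difference was -0.39 with an SE of 0.09 (adjusted p = 0.00236), or 76.4% of the LW signal. A_72_P395573 gave -0.31 (adjusted p = 0.0239) and O12719 gave -0.28 (adjusted p = 0.0188), while A_72_P223292 gave -0.25 (adjusted p = 0.0736). All 4 were called once the 5 animals were left out, from -0.47 to -0.33. With the measure as a covariate the CD74 probes lay between -0.26 and -0.16 and did not pass (smallest adjusted p = 0.0888).

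SLA-DQB1 (DQ beta chain) was the member with the fewest called probes. A_72_P039061 (start 1061) ran from 12.10 to 13.49 in LW and from 11.71 to 13.01 in CR, with a difference of -0.42 and an SE of 0.15 (adjusted p = 0.0381). The 4 others lay between -0.25 and -0.01 and did not pass. At A_72_P585101 (start 1104), which shares 17 bases with A_72_P039061, the difference was -0.02 with an SE of 0.22 (adjusted p = 0.965).

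SLA-DQA1 (DQ alpha chain) had the widest spread among its own probes. Their pairwise correlations over the 36 animals had a median r of 0.37, against 0.67 to 0.92 in the 6 other genes. Of 10 probes 6 were called, from -1.37 to -0.36. A_72_P763148 gave -1.37 with an SE of 0.27 (adjusted p = 0.000288), while its overlapping neighbour A_72_P743257 gave -0.13 with an SE of 0.43 (adjusted p = 0.865). At A_72_P765361 LW ran from 6.48 to 7.57 (median 7.06), CR from 4.93 to 6.98 (median 6.01) and F1 from 5.83 to 7.27 (median 6.68), a difference of -1.10 with an SE of 0.19 (adjusted p = 5.71e-05). This probe was above background on 34 of 36 arrays and its difference was -1.10 with the measure as a covariate (adjusted p = 0.00107). Its overlapping neighbour A_72_P244477 gave -0.46 (adjusted p = 0.00836).

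The overlapping probes printed above were therefore set against each other within each array. This is a description without a test, because the pairs were picked after their values were seen. The log2 signal of A_72_P743257 minus that of A_72_P763148 lay in a narrow band in LW, from -1.42 to -1.04 (median -1.14) in all 12 animals. In CR none of the 12 animals lay inside that band. In 10 of them the difference was above it, between -0.98 and 1.5, and in 2 it was below it, at -2.08 in CR TN 3 and -2.63 in CR HS 2. In F1 it ran from -1.28 to 0.34 (median -0.89), 10 of 12 animals lay above the highest LW value, and 2 were positive, F1 TN 1 at 0.28 and F1 HS 4 at 0.34.

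**Figure D4:**
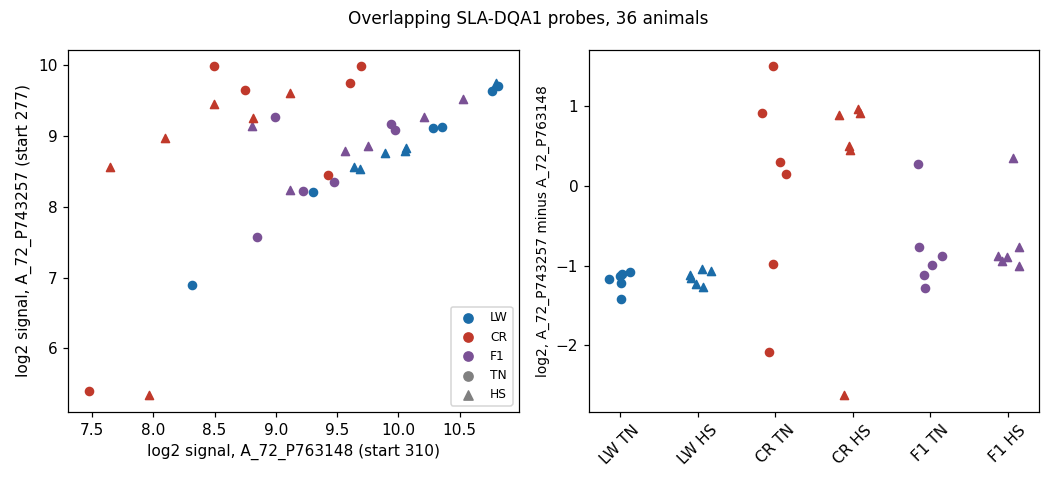
Left, log2 signal of the 36 animals at the overlapping SLA-DQA1 probes A_72_P743257 and A_72_P763148, by breed (colours) and temperature (shapes); right, their difference by group. The 12 LW animals lie on a line with a difference between -1.42 and -1.04, whereas CR animals spread from -2.63 to 1.5 with none inside that range.

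At A_72_P743257, a probe of that pair, CR TN 3 and CR HS 2 were the lowest of 12 CR animals, at 5.39 and 5.33. This probe was above background on all 36 arrays. Both signals lay below the median of their arrays, 6.40 and 6.36 before normalization. The part of the low end of the scale in the difference of the pair was not tested. At A_72_P763148 CR TN 3 ranked 1 from the lowest, at 7.47, and CR HS 2 ranked 3, at 7.96. Ranks were read at selected probes only. At the SLA-DQB1 probe A_72_P585101 these 2 animals were again the lowest, at 10.49 and 10.97. At the SLA-DQA1 probe A_72_P765361 they were the highest of the 12, at 6.98 and 6.63. The within-array difference of A_72_P765361 minus A_72_P244477 ran from -6.54 to -5.41 in LW (median -5.99), from -7.48 to -6.04 in CR (median -6.71) and from -6.83 to -5.67 in F1 (median -6.39), with 8 CR and 2 F1 animals below the lowest LW animal. The alleles the animals carried are not in the labels, so bases that differ under a probe and RNA in different amounts cannot be told apart, and values of single SLA-DQA1 probes are not the amount of SLA-DQA1 RNA.

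F1 animals lay below LW as well. F1 minus LW called 13 of 37 probes, all lower in F1, against 9.23% of all passing probes; the differences ran from -0.84 to 0.17 with a median of -0.33. CR minus LW and F1 minus LW use the same LW animals, so they are not separate evidence. The called probes were 4 of SLA-DRA, 2 of SLA-DQA1, 1 of SLA-DQB1, 1 of SLA-DMA, 2 of SLA-DMB and 3 of CD74. The difference was -0.84 with an SE of 0.19 at SLA-DMB A_72_P629649 (limma, adjusted p = 0.003), -0.59 with an SE of 0.14 at SLA-DMA A_72_P427349 (adjusted p = 0.00506) and -0.59 with an SE of 0.16 at SLA-DQB1 A_72_P631166 (adjusted p = 0.00983). At the last probe F1 lay between 6.68 and 8.19 (median 7.05) and LW between 7.26 and 8.33 (median 7.72).

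This count leaned on the animals and slides more than that of CR did. Without the 5 animals 25 probes were called lower, against 15.9% of all passing probes. With the measure as a covariate 2 probes were called, SLA-DMB A_72_P629649 at -0.51 (adjusted p = 0.0192) and SLA-DMA A_72_P427349 at -0.44 (adjusted p = 0.0485), against 3.61% of all passing probes. Leaving out slide 3 brought the count to 1 and the share of all passing probes called lower in F1 to 1.98%.

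Between F1 and CR 0 of 37 probes were called (limma, smallest adjusted p = 0.0781; 8 with an unadjusted p under 0.05, against 12.5% of all passing probes; 1.5% of all passing probes called), and 29 of 37 differences were positive, with a median of 0.16. Without the 5 animals 1 was called, SLA-DQB1 A_72_P631166, lower in F1 by a log2 difference of -0.50 (adjusted p = 0.0476), when 1.34% of all passing probes were called lower. F1 against the average of both parental breeds called 0 of 37 (smallest adjusted p = 0.0869; 2 with an unadjusted p under 0.05, against 15.2% of all passing probes; 1.12% of all passing probes called), with a median of -0.07. Without the 5 animals 7 were called, all lower in F1, against 8.57% of all passing probes: A_72_P631166 of SLA-DQB1, A_72_P746609 and A_72_P750437 of SLA-DQA1, A_72_P427349 of SLA-DMA, both SLA-DMB probes and A_72_P796773 of CD74. With the measure as a covariate each of these comparisons called 0 of 37, against 1.88% of all passing probes for F1 minus CR and 1.06% for F1 against its parents.

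The class II genes varied together between animals of the same group. With each group mean taken off, the probes with the highest mean signal of the 7 genes gave 21 pairs, and all 21 had a positive correlation with an adjusted p under 0.05, by Pearson's r (0.48 to 0.91, median 0.61) and by Spearman's rho (0.48 to 0.90). SLA-DRA and CD74 gave the highest r, 0.91 (permutation p = 1e-05, the smallest the permutations can give; adjusted p = 5.25e-05; rho 0.90, p = 1e-05, adjusted p = 3.5e-05). SLA-DQA1 and SLA-DQB1 followed with 0.82 (p = 1e-05, adjusted p = 5.25e-05; rho 0.81, p = 1e-05, adjusted p = 3.5e-05). SLA-DQA1 and SLA-DMA gave the lowest, 0.48 (p = 0.00564, adjusted p = 0.00564; rho 0.55, p = 0.00186, adjusted p = 0.00217). The share of other gene pairs that would pass the same test was not worked out. The correlations are therefore not shown to be particular to class II genes. Genes outside the 7 reached r = 0.81 with CD74, as given below.

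Without the 2 animals farthest from the median on the x axis, r ran from 0.42 to 0.88. It ran from 0.39 to 0.89 with slide effects also taken off, from 0.52 to 0.90 with the 5′ minus 3′ measure taken off, and from 0.44 to 0.91 without the 5 animals. All 21 pairs kept an adjusted p under 0.05 in these last 3 settings. Littermates were among the 36 animals, so these p-values treat related animals as independent.

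**Figure D5:**
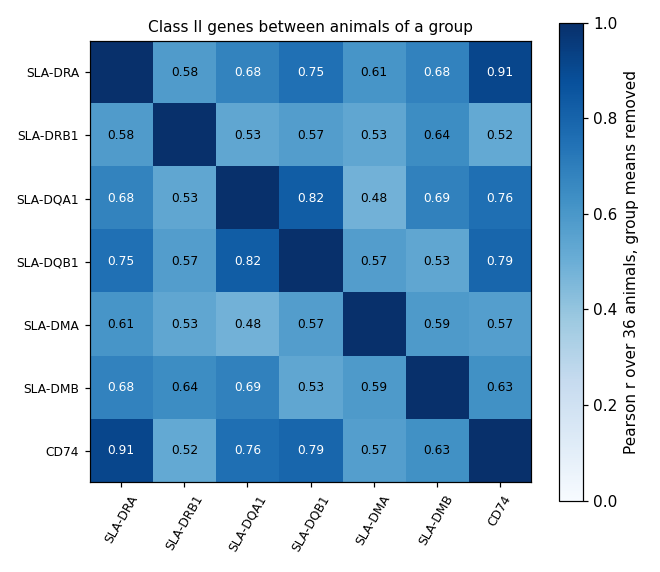
Pearson's r between the probes with the highest mean signal of the 7 class II genes over 36 animals after taking off each group mean. All 21 pairs are positive, from 0.48 (SLA-DQA1 with SLA-DMA) to 0.91 (SLA-DRA with CD74).

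Over all 36 animals and 11353 gene symbols, the genes most like CD74 by Pearson's r were TYROBP at 0.81, CD48 at 0.78, ARHGAP30 at 0.78, MFNG at 0.78 and ARHGAP25 at 0.77. Those most like SLA-DRA were CD1.1 at 0.77, ARHGAP30 at 0.76, ARHGDIB at 0.75, SASH3 at 0.73 and TYROBP at 0.72. The mean of each group was taken off first, so these values describe likeness between animals of the same group, without a test.

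The wider pathway was followed in 32 genes, of which 29 had a probe and 28 passed the filter, each read at its probe with the highest mean signal. CIITA, the master transactivator of class II genes, and SOCS1 had no named probe, and MARCHF1 was not well above background on enough arrays. HS minus TN called 0 of 28 (limma), against 0.933% of all symbols. CR minus LW called 6 lower and 3 higher, against 14.3% of symbols lower and 11.6% higher, and the median of the 28 differences was -0.05. With the 5 animals left out 8 were called lower and 3 higher, against 17.6% and 14.2% of symbols. None of the 7 measured regulators (RFX5, RFXANK, RFXAP, NFYA, NFYB, NFYC and CREB1, which bind class II promoters) was called, with differences from -0.14 to 0.11. Of the 7 measured genes of interferon gamma signalling, JAK2 was lower at -0.22 (adjusted p = 0.0494) and the receptor chain IFNGR2 higher at 0.35 (adjusted p = 0.00973).

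Of 8 measured genes of peptide loading and lysosomal processing, 3 were lower in CR. CTSS, the protease that trims CD74, ran from 12.73 to 13.68 in LW and from 12.04 to 12.76 in CR, with a difference of -0.84 and an SE of 0.11 (adjusted p = 2.95e-06). IFI30, a thiol reductase of the endosome, ran from 9.35 to 10.17 in LW and from 8.89 to 9.88 in CR, with a difference of -0.44 (adjusted p = 0.00456). SLA-DOB, part of the DO molecule that restrains DM, was lower by a difference of -0.30 (adjusted p = 0.0235).

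Among 6 measured genes of surface turnover and co-stimulation, CD4 (-0.47, adjusted p = 7.55e-05) and CD86 (-0.36, adjusted p = 0.00228) were lower. CD83, which keeps class II at the surface of dendritic cells, ran from 7.72 to 8.52 in LW and from 8.06 to 9.33 in CR and was higher in CR by 0.63 with an SE of 0.13 (adjusted p = 0.000484). The ubiquitin ligase MARCHF8 was higher by 0.24 (adjusted p = 0.0215). With the 5′ minus 3′ measure as a covariate 4 of these 9 were called, 3 lower (CTSS, IFI30 and CD4, against 6.8% of symbols) and CD83 higher (against 4.7%).

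In F1 minus LW the same 28 genes gave 6 lower and 4 higher, against 10.1% of symbols lower and 7.28% higher. CTSS was at -0.67 (adjusted p = 0.000287), CD4 at -0.42 (adjusted p = 0.0011), CD86 at -0.39 (adjusted p = 0.00271), SLA-DOB at -0.40 (adjusted p = 0.00598), MARCHF8 at 0.33 (adjusted p = 0.00384) and CD83 at 0.52 (adjusted p = 0.00537). Leaving out the 5 animals gave 7 lower and 4 higher, against 17.1% and 13.5% of symbols, and with the measure as a covariate 4 were lower and 2 higher, against 4.15% and 2.36%.

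Among markers of the cell types that carry class II, 7 of 10 of macrophages and Kupffer cells and 6 of 6 of sinusoidal endothelium were lower in CR than in LW, 1 of 2 of dendritic cells was lower, and 0 of 5 of B cells were called. Over all symbols 14.3% were called lower and 11.6% higher. Bulk liver cannot tell fewer cells of a type from less RNA per cell, and the part of these markers in the class II differences was not tested. Of 12 macrophage and Kupffer cell markers 10 were measured, and the 7 that were lower were CD163 (-1.16), C1QB (-0.97), C1QC (-0.96), C1QA (-0.84), VSIG4 (-0.83), CSF1R (-0.56) and AIF1 (-0.28). CD68, CD14 and CD5L gave -0.21, -0.10 and 0.12 and did not pass, although 1 of the 3 kept CD14 probes was called. The log2 of the summed signal of the 10 ran from 17.23 to 17.47 in LW, from 16.90 to 17.26 in CR and from 16.88 to 17.40 in F1. Such a sum, here and below, follows its brightest probes and can hide differences at dimmer ones.

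All 6 measured markers of sinusoidal endothelium were lower in CR, with a median of -0.59, and their summed signal ran from 14.58 to 15.20 in LW, from 14.14 to 14.75 in CR and from 14.19 to 15.14 in F1. Of 10 T and NK cell markers 7 were lower and 2 higher, CD5 and LCK, against the same shares of symbols, and the summed signal ran from 12.10 to 12.43 in LW, from 11.99 to 12.39 in CR and from 12.18 to 12.44 in F1.

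None of the 5 measured B cell markers was called at its probe with the highest mean signal, with differences from -0.05 to 0.17. Of the 2 kept CD79A probes, however, 1 was called. The summed signal of the B cell markers ran from 9.09 to 9.34 in LW, from 8.96 to 9.50 in CR and from 8.99 to 9.41 in F1. PAX5 and CD22 had no named probe. Of 9 dendritic cell markers 2 were measured, XCR1 (-0.28, adjusted p = 0.0321) and CCR7 (-0.10, adjusted p = 0.537), and their summed signal ran from 7.71 to 8.57 in LW, from 7.57 to 8.20 in CR and from 7.66 to 8.54 in F1. PTPRC (CD45), carried by all leukocytes, was not called at 0.11 (adjusted p = 0.283). Of 7 hepatocyte markers APOA1 (-0.12) and FGB (-0.20) were lower, with a median of -0.01 over the 7. Without the 5 animals 7 macrophage, 6 endothelial, 8 T and NK cell, 0 dendritic, 0 B cell and 2 hepatocyte markers were called lower, against 17.6% of symbols. With the measure as a covariate 6 macrophage, 6 endothelial, 4 T and NK cell, 1 dendritic, 0 B cell and 0 hepatocyte markers were called lower, against 6.8% of symbols.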

How the data were processed

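Liver total RNA was labelled with Cy3 and hybridised to 1-colour Agilent pig arrays. The authors deposited scanner tables of Feature Extraction 10.10.1.1 (version per the submitters' processing notes), whose gMedianSignal column holds intensity on a linear scale without background subtraction, and a log2 table of 42051 probes made with limma, with each probe centred; the latter served as an alternative. The array files were read in R 4.3.3, control spots and 107 non-uniform spots were left out, log2 intensities were quantile normalized and duplicate spots averaged. limma 3.58.1 (lmFit, eBayes) was fitted to the 44796 probes that passed the filter with breed and temperature, and to the means of the 6 groups for the interaction and the differences within a breed; the pen, slaughter day, father and mother of the study's own model are not in the labels. The fit was tested on simulated data. Permutation tests used 100000 resamples, within groups for correlations, and matplotlib 3.10.9 drew the figures. Where arrays are concerned, the number of animals limits the precision. Every kept probe of the members was reported; each other gene was read at its brightest kept probe on average, pathway genes were named when called (at most 6 a comparison, by p) plus CIITA and IFI30, and JAK2, SLA-DOB and MARCHF8 were named in CR minus LW after their values were seen. Members and lists were chosen with earlier results of these data known. The 5 animals, the 5′ minus 3′ measure and the slide-corrected correlations were chosen after seeing the data. CTSL was not counted, because its probes carry a name that RefSeq resolves to another gene. Gene names came from the array files and, for older accessions, from RefSeq of Sscrofa11.1.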

Additional observations from a re-analysis of the deposited data

Results flagged for a closer look

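In 222 checks of a group of 6 animals at a class II probe, 13 found the highest or lowest animal farther from the others than Dixon's 95% critical value allows. Chance alone gives about 1 in 20, or 11.1 of these checks, and probes of 1 gene are not independent. They fell in 5 animals. CR TN 3 was the lowest of its group in 6, with log2 signals of 11.62 (SLA-DRA A_72_P683574), 11.44 (SLA-DRA A_72_P652871), 5.39 (SLA-DQA1 A_72_P743257), 6.71 (SLA-DQB1 A_72_P631166), 10.49 (SLA-DQB1 A_72_P585101) and 9.87 (SLA-DQB1 O9647). F1 TN 4 was the lowest in 3 checks, all of SLA-DRB1: 10.21 at A_72_P079096, 11.25 at A_72_P110316 and 11.94 at A_72_P545751. LW HS 2 was the highest at both overlapping SLA-DQA1 probes, with 9.75 at A_72_P743257 and 10.80 at A_72_P763148. CR HS 2 was the lowest at A_72_P743257 with 5.33, and LW HS 5 the lowest at SLA-DRA A_72_P176171 with 12.48. None of these 5 animals was among the 5 that stood apart on the first principal component.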

How the results depend on the processing

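No called difference changed sign under any alternative. HS minus TN, within each breed or over all, and the interaction called 0 class II probes throughout. CR minus LW called 14 class II probes with the 5′ minus 3′ measure and 15 without slide 3; F1 minus LW called 20 with array weights, 25 without the 5 animals, 2 with the measure, and 5, 1 and 3 without slides 2, 3 and 4. F1 minus CR called 1 without the 5 animals; F1 against the mean of the parents called 1 with array weights and 7 without the 5 animals. Of the pathway genes, CR minus LW called 4 with the measure and 3 without slide 3; F1 minus LW called 6 with the measure, 3 without slide 3 and 6 without slide 4; F1 minus CR called 1 with slide as a block; F1 against the parents called 1 with the processed signal, with normexp, with slide as a block and without slide 1, 3 with array weights and 7 without the 5 animals. The number of all 44796 passing probes called moved with the setting as well. For CR minus LW it was 11856 in the main fit, 14020 with array weights and 4843 with the measure. For F1 minus LW it was 8222 in the main fit, 14486 without the 5 animals and 2929 with the measure. For F1 against the parents it was 502 in the main fit and 7624 without the 5 animals. The counts in this paragraph are thus not by themselves a result about class II genes. The cause was not tested. Leaving out 1 animal gave 22 to 29 class II probes for CR minus LW, 7 to 19 for F1 minus LW (7 without LW TN 3, LW HS 4, F1 TN 4 or F1 HS 4, and 8 without LW HS 1, LW HS 2 or F1 TN 1), 0 to 1 for F1 minus CR (1 without LW TN 5 or CR TN 6) and 0 to 1 for F1 against the parents (1 without F1 HS 2); for pathway genes 7 to 9, 8 to 11, 0 and 0 to 1. No paired analysis was possible because replicate numbers follow accession order. Pen, litter and allele are not in the labels.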
